A study of Mus musculus with 12 samples.

Results

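The genes described here encode the protein factors that start and drive protein synthesis on cytoplasmic ribosomes. They were the protein-coding genes in the deposited table whose symbol begins with Eif1 to Eif6 or with Eef1 or Eef2, leaving out the Eif2ak kinases, and they numbered 64 of 54532 genes (22046 of them protein coding). The choice used gene names and no measured value. Of the 64, 60 passed the filter on low counts and were tested among 13571 genes. The other 4 had almost no counts over the 12 libraries: Eif4e1b had 0, Eef1a2 had 1, Eif4e3 had 10 and Eif4ebp3 had 22.

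Libraries of poly(A) RNA came from mouse keratinocytes in culture, the cells that form the epidermis. The genotype is labelled WT DP-BirA(1-584), and in all 4 groups the cells carried this doxycycline-induced piece of desmoplakin, a plaque protein of desmosomes, fused to the biotin ligase BirA. All cells also received calcium to differentiate, doxycycline at 2 µg/mL and a biotin pulse of 16 h, and were either wounded or left unwounded. The translating fraction of a sucrose gradient was passed over neutravidin resin, which binds biotin. RNA on the resin is the cortical fraction, and RNA in the depleted remainder is the total fraction, so a cortical-to-total ratio sets bound against unbound material. There were 3 libraries in each of the 4 groups, total and cortical of unwounded and of wounded cells. Titles call them biological replicates without saying whether they came from separate dishes, so p-values measure the spread between these samples, which may be technical. The study compared the fractions within each treatment and the treatments within each fraction.

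Initiation begins when eIF2 brings the initiator methionine transfer RNA to the small ribosomal subunit, where eIF1, eIF1A, eIF3 and eIF5 also sit. The eIF4F complex (the cap-binding protein eIF4E, the scaffold eIF4G and the helicase eIF4A) loads the messenger RNA, and eIF5B joins the large subunit. During elongation eEF1A delivers aminoacyl transfer RNAs and eEF2 moves the ribosome along. Many messages for this machinery, those of the elongation factors among them, begin with a run of pyrimidines called a terminal oligopyrimidine (TOP) motif, which places their translation under mTOR and the RNA-binding protein LARP1.

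Total counts per library ran from 8980013 to 23457548. The members took 3.93% ± 0.241 of all counts in unwounded total (SD, n = 3), 4.10% ± 0.0278 in unwounded cortical, 3.52% ± 0.387 in wounded total and 3.98% ± 0.0730 in wounded cortical libraries. One library stood apart in the number of genes with a count. In wounded total replicate 1 a count was found for 13117 genes, whereas each of the other 11 libraries had 14393 to 16867. Members took 3.95% of its counts, compared with 3.38% and 3.22% for replicates 2 and 3 of its group. Counts without it are given beside each comparison. Loss of low counts was not confined to this library. Among genes expected at 10 to 20 counts from the rest of their group, 0.506% to 5.05% had 0 in unwounded total libraries. The share was 4.40% to 24.8% in unwounded cortical, 13.1% to 32.7% in wounded total and 17.6% to 23.6% in wounded cortical libraries. The share in every unwounded total library thus lay below that in every wounded library, while the ranges of all other pairs of groups overlapped. The part of this loss in the results was not tested. Of the keratinocyte markers, Krt5 averaged 4080 to 7430 CPM (counts on a common library scale) in the 4 groups, and Krt14 averaged 4490 to 10400 CPM. The summed level of 10 markers ran from 11000 to 12100 CPM in unwounded total, 15400 to 15500 in unwounded cortical, 17600 to 20200 in wounded total and 20900 to 21200 in wounded cortical libraries. Krt5 and Krt14 made up most of this sum, while Krt1 averaged only 0.596 to 1.4 CPM. In both treatments Krt10 and Sfn averaged lower in cortical than in total libraries, and the other markers averaged higher. Sfn averaged 945 and 593 CPM in unwounded total and cortical libraries and 761 and 519 CPM in wounded ones. Summed fibroblast, melanocyte and endothelial markers stayed at or below 6.47 CPM in every library. Of 5 immune markers, Cd207 and Lyz2 had 0 counts, and Ptprc and Cd3e averaged under 0.1 CPM in each group. The immune sum was therefore nearly all Cd68, which averaged 23.2 and 19.3 CPM in unwounded total and cortical libraries and 50.7 and 35.2 CPM in wounded ones. The part of these shifts in the results below was not tested.

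Per unit of length, the elongation factors made up most of what these genes contributed. Levels between genes were compared on the deposited FPKM, which divides counts by gene length and library size. Eef1a1, the main carrier of aminoacyl transfer RNA in proliferating cells, averaged 4424 FPKM over the 12 libraries and held 33.0% of the summed FPKM of all members. Eef2, the translocase, followed at 2059.8 FPKM, and Eef1g, a subunit of the exchange factor that recharges eEF1A, at 1057 FPKM. The next were Eif5a at 724 FPKM, the eIF3 subunit gene Eif3h at 697, Eif1 at 680.3, Eef1b2 at 587 and Eif6 at 507. Over the 12 libraries Eef1a1, Eef2 and Eef1g did not overlap one another, whereas Eif5a, at 524 to 1101 FPKM, overlapped Eef1g above it and each of the 4 genes below it. As classes, the 7 elongation factor genes held 62.1% of the summed FPKM, the 14 eIF3 genes 14.4%, the 3 eIF5A and eIF6 genes 9.18%, the 18 genes of eIF2 and start codon factors 8.17%, the 16 eIF4 genes 5.60% and the 6 genes of elongation factor modifiers 0.561%. At the low end of the tested members lay Eif5a2, the second eIF5A gene, at 0.410 FPKM, and Eif4g3, an eIF4G paralog, at 2.38 FPKM.

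Genomic sequence at the annotated starts of some members is shown because the TOP motif lies at the first bases of a message. The windows run 5′ to 3′ from 5 bases before to 25 bases from the annotated RefSeq start on build GRCm38.p6, and capitals mark the longest run of C and T in each window. Shown first are the 5 members of a list of 9 known TOP messages (Eef1a1, Eef1b2, Eef1d, Eef1g, Eef2, Eif3e, Eif3f, Eif3h and Eif4b) that had a window, and then the 3 long factors that were higher in the cortical fraction of unwounded cells.
Eef1a1 (chr9:78481700-78481729, - strand): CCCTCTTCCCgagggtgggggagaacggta
Eef2 (chr10:81176626-81176655, + strand): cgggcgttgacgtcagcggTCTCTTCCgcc
Eif3f (chr7:108934410-108934439, + strand): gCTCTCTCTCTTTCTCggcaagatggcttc
Eif4b (chr15:102073768-102073797, + strand): tcggacgccgcgccaCCCCCTCgcgctgct
Eef1b2 (chr1:63176826-63176855, + strand): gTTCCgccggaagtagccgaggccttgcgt
Eif5b (chr1:37998005-37998034, + strand): TTCCCacctggccggcggctctactggaga
Eif4g1 (chr16:20672722-20672751, + strand): gctccgCCCTCTgcgccggtcacgtggggc
Eif3a (chr19:60790669-60790698, - strand): gcggcggcgCTgccgccgcgagggaatcac
A run of at least 8 pyrimidines was found in 3 of the 5 TOP-list windows, in 9 of the 57 windows of other members, and in 10.3% of all 32851 windows of this length. Runs were counted anywhere in the window, whereas a TOP motif lies at the first bases of the message. In Eef2 the run lay well after the annotated start. These are therefore counts of runs and not of TOP motifs. Windows were found for 48 of the 64 members, and some of the 43 outside the TOP list had several. A single annotated start may differ from the start used in these cells, so a window without a run says nothing about the message made here.

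In unwounded cells the members higher in the cortical fraction were Eif5b, Eif4g1, Eif3a and Eif4b, and the 15 lower ones were led by Eif4ebp1, Eif1ad, Eif5a, Eef1e1 and Eif1ax. In numbers, 19 of 60 members passed the edgeR quasi-likelihood test at an adjusted p of 0.05, 4 higher and 15 lower, against 14.2% of all genes tested (6.62% higher and 7.59% lower). The median log2 fold change was -0.20 over the members and 0.00 over all genes. Well-covered genes were called more often: among the 10386 with a mean of at least 50 counts, 20.7% passed in unwounded and 22.2% in wounded cells, with 19 and 17 of the 58 members among them. In wounded cells 15 of 60 passed, 3 higher and 12 lower, against 15.7% of all genes (7.62% higher and 8.03% lower), with medians of -0.10 and 0.04. Called in both treatments, in the same direction, were 11 members, which is 57.9% of the unwounded and 73.3% of the wounded calls (52.2% and 47.4% over all genes). The libraries of the fractions did not overlap for any of these calls. How often that holds for calls over all genes was not counted, so it cannot be set against the whole. Where a gene is given below with a bare value and its adjusted p, the value is its log2 fold change, and of a pair the first is for unwounded and the second for wounded cells. In bulk RNA, fewer cells of a type and less RNA per cell cannot be told apart, and the scale is relative to the rest of each library. With library size alone as the scale, the median of all genes rose to 0.19 in unwounded and 0.25 in wounded cells and the calls split 10 higher and 9 lower, and 12 and 6. On that scale the calls for Eif1, Eif1a, Eif3m, Eif4a3, Eif4e and Eef1e1 in unwounded cells and for Eif1, Eif1ax, Eif3b, Eif4e2, Eif5a and Eef1akmt1 in wounded cells did not pass. Without wounded total replicate 1 the calls numbered 25 in unwounded and 19 in wounded cells, while the share over all genes rose to 22.4% and 24.7%. The unwounded count was 12 without unwounded total replicate 2 (6.69% of all genes). The wounded count was 8 without wounded total replicate 2 (7.66%) and 9 without wounded cortical replicate 3 (9.41%).

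**Figure D1:**
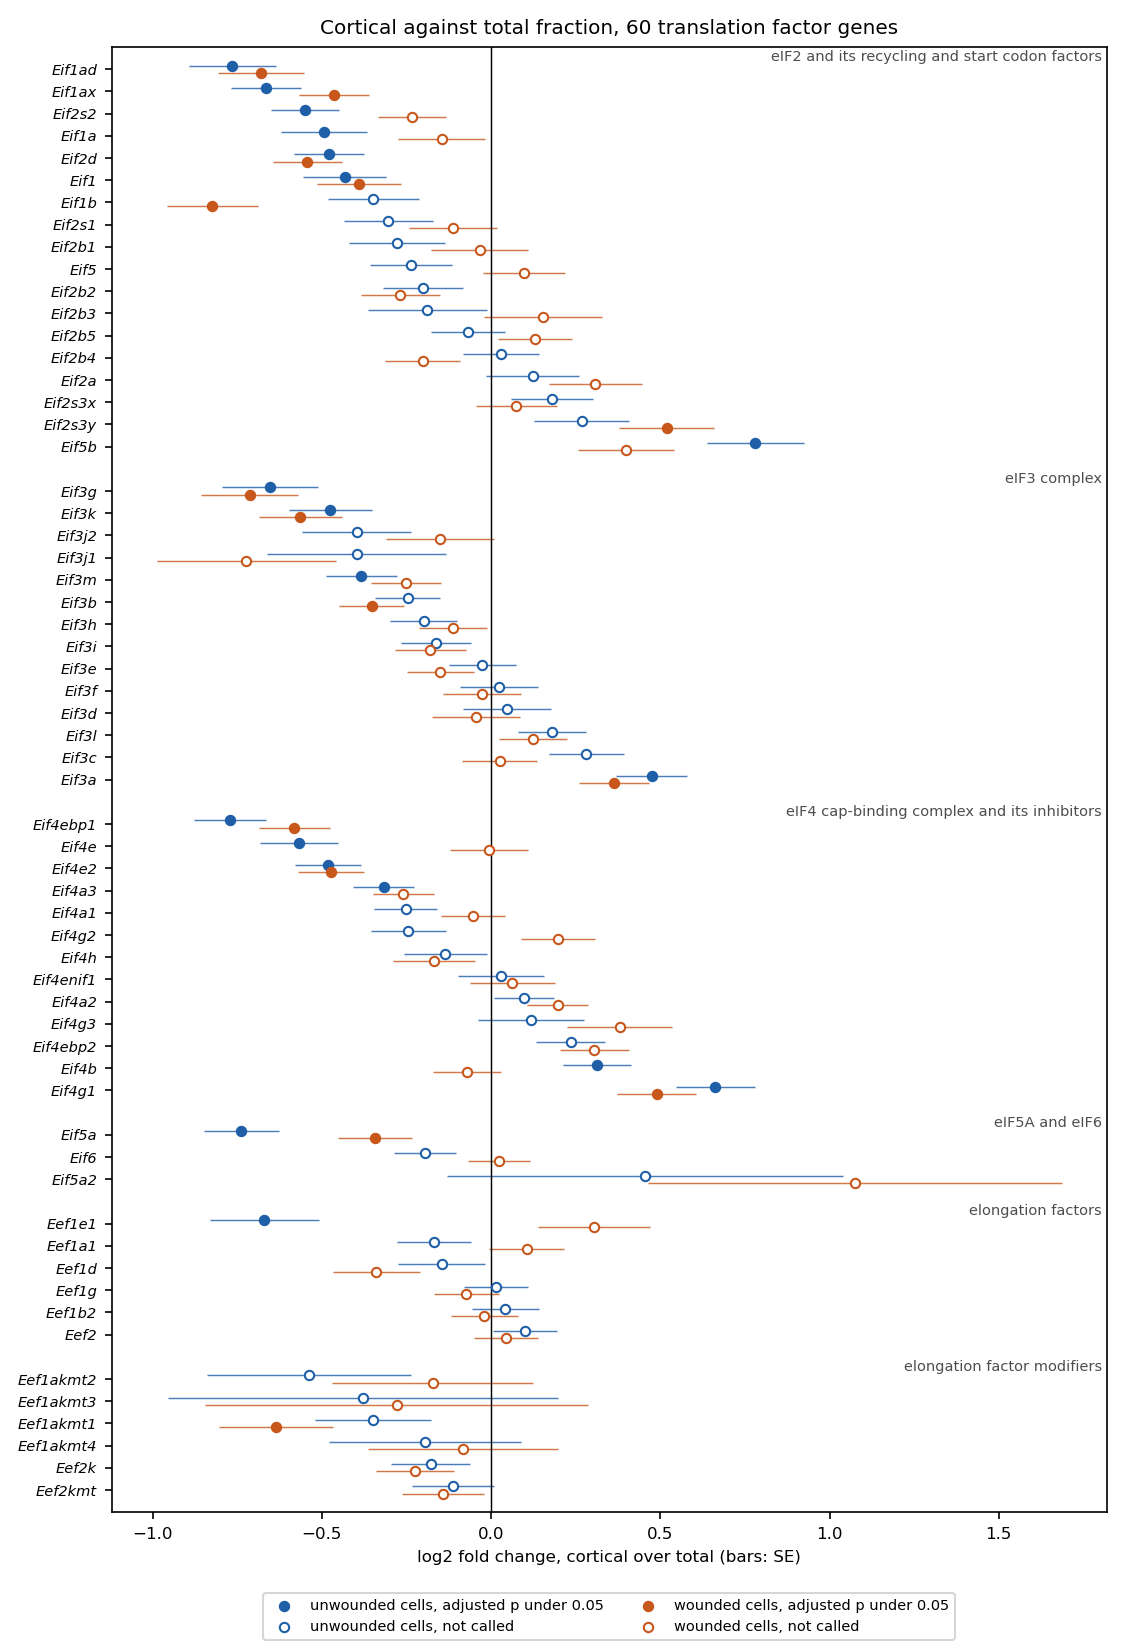
Log2 fold change of cortical over total fraction (x axis, bars: SE) for the 60 tested members, grouped by role, in unwounded and wounded cells. Filled points passed an adjusted p of 0.05: 19 in unwounded and 15 in wounded cells, most of them left of 0, with Eif5b, Eif4g1 and Eif3a among those to the right.

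Among the 18 factors of eIF2 and start codon choice, 1 was higher and 6 were lower in the cortical fraction of unwounded cells. That is 38.9% of the 18, beside 14.2% of all genes and 20.7% of well-covered genes. The higher one was Eif5b (ENSMUSG00000026083, chromosome 1, 37998010 to 38055579, + strand), the GTPase that joins the subunits. It measured 102, 100.4 and 156 CPM in the unwounded total and 207, 210.3 and 199 CPM in the unwounded cortical libraries. Every cortical library lay above every total one (log2 fold change 0.78, SE 0.14, adjusted p = 0.00191). In wounded cells the values were 232, 215 and 261 CPM in total and 318, 299 and 317 CPM in cortical libraries. These groups did not overlap either, but the difference of 0.40 did not pass (SE 0.14, adjusted p = 0.0673).

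The small scanning factors lay on the other side. Eif1ax (ENSMUSG00000067194, chromosome X, 159372178 to 159389928, + strand), an X-linked gene of eIF1A, which holds the scanning ribosome open, measured 239, 264 and 226 CPM in unwounded total and 162, 145 and 153 CPM in unwounded cortical libraries. The groups were well apart (log2 fold change -0.66, SE 0.10, adjusted p = 0.000636). In wounded cells Eif1ax measured 207, 226 and 186 CPM in total and 151, 143 and 155 CPM in cortical libraries, again without overlap (log2 fold change -0.46, SE 0.10, adjusted p = 0.00686). Eif1ad (ENSMUSG00000024841, chromosome 19, 5366813 to 5371511, + strand), whose product carries an eIF1A-like domain, measured 264, 307 and 270.4 CPM in unwounded total and 149.8, 162 and 184 CPM in unwounded cortical libraries. It was lower in the cortical fraction in both treatments (log2 fold change -0.76, SE 0.13, adjusted p = 0.00102 in unwounded cells). The wounded values were 185, 242 and 258 CPM in total and 131, 149 and 148 CPM in cortical libraries (log2 fold change -0.68, SE 0.13, adjusted p = 0.00233).

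Eif2d, a factor that can deliver initiator transfer RNA without eIF2, was lower in cortical RNA, with log2 fold changes of -0.48 in unwounded and -0.54 in wounded cells (adjusted p = 0.00526 and 0.00244). It is overlapped on the other strand by Rassf5, whose counts came to 25.1% of its own, and the libraries do not keep strand. Eif1, which guards start codon choice, was also lower, at -0.43 and -0.39 (adjusted p = 0.0257 and 0.0407). The Eif1 calls held in 14 and 11 of 24 alternative analyses. The unwounded value was -0.23 (adjusted p = 0.0775) once a loess trend on the deposited gene length, not the coding length, was removed. Library size alone gave -0.16 (adjusted p = 0.195) in wounded cells. Eif2s2, the beta subunit of eIF2, was called in unwounded cells at -0.55 (adjusted p = 0.00182) and had -0.23 (adjusted p = 0.13) in wounded cells. Eif1a, the autosomal eIF1A gene, was also lower in unwounded cells at -0.49 (adjusted p = 0.0152), a call that ended with the length trend removed (-0.37, adjusted p = 0.141) and with library size alone (-0.30, adjusted p = 0.259). The alpha subunit gene Eif2s1 had -0.30 (adjusted p = 0.141) and did not pass.

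In wounded cells 1 of these 18 was higher and 5 were lower, which is 33.3% of them beside 15.7% of all genes. Eif1b, a close relative of Eif1, measured 32.4, 39.98 and 33.4 CPM in wounded total and 20.8, 19.2 and 19.7 CPM in wounded cortical libraries. The groups did not overlap (log2 fold change -0.82, SE 0.13, adjusted p = 0.001), while in unwounded cells the difference was -0.35 (adjusted p = 0.103). Eif2s3y, the Y-linked gene of the gamma subunit of eIF2, measured 149.6, 111 and 92.3 CPM in wounded total and 175, 162 and 168 CPM in wounded cortical libraries. Its cortical values were the higher ones (log2 fold change 0.52, SE 0.14, adjusted p = 0.0202), and it shares reads that can be hard to assign with Eif2s3x. With the length trend removed, Eif2s3y no longer passed (0.39, adjusted p = 0.113). The 5 subunits of eIF2B, the exchange factor that reloads eIF2 with GTP, gave no call in either treatment, with -0.07 (adjusted p = 0.789) for the catalytic subunit gene Eif2b5 in unwounded cells.

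Of the 14 eIF3 genes 1 was higher and 3 were lower in the cortical fraction in each treatment. That is 28.6% of the 14, beside 14.2% and 15.7% of all genes and 20.7% and 22.2% of well-covered genes. Eif3a (ENSMUSG00000024991, chromosome 19, 60761116 to 60790693, - strand), the largest scaffold subunit, measured 113, 102 and 126 CPM in unwounded total and 149, 159.7 and 166 CPM in unwounded cortical libraries. All cortical values exceeded the total ones (log2 fold change 0.47, SE 0.10, adjusted p = 0.00613). In wounded cells the values were 186, 179 and 176 CPM in total and 212, 249 and 234 CPM in cortical libraries (log2 fold change 0.36, SE 0.10, adjusted p = 0.0259), a call that was lost once the length trend was removed (0.20, adjusted p = 0.243).

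Eif3g, a subunit near the messenger RNA channel, measured 289.7, 338 and 301 CPM in unwounded total and 182, 217 and 191 CPM in unwounded cortical libraries. The difference was -0.65 on the log2 scale (SE 0.14, adjusted p = 0.00573). The wounded libraries gave 247, 355 and 401 CPM in total and 203, 207 and 201 CPM in cortical (log2 fold change -0.71, SE 0.14, adjusted p = 0.00338). Eif3k was lower in both treatments, at -0.47 (adjusted p = 0.0154) and -0.56 (adjusted p = 0.00603). Eif3m was called in unwounded cells at -0.38 (adjusted p = 0.0196), and Eif3b, a core scaffold subunit, in wounded cells at -0.35 (adjusted p = 0.0205). The other 9 eIF3 genes passed in neither treatment. The call for Eif3m ended with the length trend removed (-0.23, adjusted p = 0.228) and with library size alone (-0.19, adjusted p = 0.342).

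Of the 13 tested eIF4 genes 2 were higher and 4 lower in unwounded cortical RNA, and 1 was higher and 2 were lower in wounded cortical RNA. That is 46.2% and 23.1% of the 13, beside 14.2% and 15.7% of all genes. Eif4g1 (ENSMUSG00000045983, chromosome 16, 20668313 to 20692884, + strand), the main eIF4G scaffold, measured 216, 195 and 264 CPM in unwounded total and 361, 362 and 346 CPM in unwounded cortical libraries. Cortical libraries were higher throughout (log2 fold change 0.66, SE 0.12, adjusted p = 0.00142). In wounded cells it measured 301, 269.6 and 319 CPM in total and 411, 445 and 392 CPM in cortical libraries (log2 fold change 0.49, SE 0.12, adjusted p = 0.0101), and this call was lost with the length trend removed (0.26, adjusted p = 0.126). Its paralogs were not called: Eif4g2, which lacks the eIF4E-binding part, had -0.24 (adjusted p = 0.161) and 0.20 (adjusted p = 0.252), and Eif4g3 had 0.12 (adjusted p = 0.732) and 0.38 (adjusted p = 0.114). Eif4b, a cofactor of the eIF4A helicase and a TOP message, was higher in unwounded cells at 0.31 (adjusted p = 0.0476) and had -0.07 (adjusted p = 0.7) in wounded cells. The unwounded call held in 13 of 24 alternatives and was lost whenever 1 of the 6 libraries compared was left out, with a highest adjusted p of 0.154.

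Eif4ebp1 (ENSMUSG00000031490, chromosome 8, 27260329 to 27276674, + strand) encodes the mTOR-controlled inhibitor 4E-BP1, which competes with eIF4G for eIF4E. It measured 304, 324 and 267 CPM in unwounded total and 179, 188 and 158 CPM in unwounded cortical libraries. The fractions were far apart (log2 fold change -0.77, SE 0.11, adjusted p = 0.000257). In wounded cells the values were 293, 322 and 298 CPM in total and 213, 196 and 201 CPM in cortical libraries, again without overlap (log2 fold change -0.58, SE 0.11, adjusted p = 0.00192). Its paralog Eif4ebp2 had 0.23 (adjusted p = 0.146) and 0.31 (adjusted p = 0.0522). Eif4ebp2 made up 29.8% ± 1.11 of the FPKM of the pair in unwounded total (SD, n = 3) and 46.0% ± 3.81 in unwounded cortical libraries, and 31.2% ± 2.42 and 45.6% ± 1.15 in wounded ones. The shares of the fractions did not overlap in either treatment, and no test was run, since an exact permutation test of 3 against 3 libraries cannot give a p below 0.1.

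Eif4e, the gene of the cap-binding protein, was lower in cortical RNA of unwounded cells. It measured 148, 137 and 110.4 CPM in unwounded total and 92.7, 79.2 and 94.8 CPM in unwounded cortical libraries (log2 fold change -0.57, SE 0.12, adjusted p = 0.00372). In wounded cells it measured 85.8, 90.96 and 81.9 CPM in total and 86.05, 89.7 and 81.7 CPM in cortical libraries, overlapping values with a difference of -0.01 (adjusted p = 0.978). Eif4e2, a homolog that represses its targets, was lower in both treatments at -0.48 (adjusted p = 0.0038) and -0.47 (adjusted p = 0.00444). Of the helicases, Eif4a1 had -0.25 (adjusted p = 0.0865) and -0.05 (adjusted p = 0.768) and Eif4a2 had 0.10 (adjusted p = 0.577) and 0.20 (adjusted p = 0.153), none of which passed. Eif4a3, which works in the exon junction complex, was called in unwounded cells at -0.32 (adjusted p = 0.0252) but not with the length trend removed (-0.12, adjusted p = 0.648) or with library size alone (-0.13, adjusted p = 0.549).

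Of the eIF5A and eIF6 genes, Eif5a was lower in cortical RNA in both treatments. Eif5a (ENSMUSG00000078812, chromosome 11, 69916714 to 69921958, - strand) encodes the hypusine-bearing factor that helps ribosomes past difficult peptide bonds. It measured 2659, 2641 and 2205 CPM in unwounded total and 1511, 1475 and 1516 CPM in unwounded cortical libraries. The cortical values lay in a narrow band below the total ones (log2 fold change -0.74, SE 0.11, adjusted p = 0.000421). In wounded cells they were 1794, 1699.9 and 1455 CPM in total and 1307, 1262 and 1332 CPM in cortical libraries (log2 fold change -0.34, SE 0.11, adjusted p = 0.0417), and this call held in 9 of 24 alternative analyses. Eif6, which keeps the large subunit from joining too early, had -0.20 (adjusted p = 0.18) and 0.02 (adjusted p = 0.908). Eif5a2 had 0.45 (adjusted p = 0.721) and 1.07 (adjusted p = 0.266) at under 1 FPKM in every library.

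Of the 6 tested elongation factor genes 5 passed in neither treatment. The 1 call, in unwounded cells, is 16.7% of the 6, beside 14.2% of all genes. Eef1a1 measured 13449, 13194 and 10259.6 CPM in unwounded total and 11177, 10918 and 10730.5 CPM in unwounded cortical libraries. These values overlapped, and the approximate 95% interval of the log2 difference was -0.38 to 0.05. In wounded cells Eef1a1 measured 10884, 10374 and 9483 CPM in total and 10738, 11562 and 10764 CPM in cortical libraries, with an interval of -0.11 to 0.32. Eef2 measured 6835, 6987 and 6172 CPM in unwounded total and 7209, 7153 and 7083 CPM in unwounded cortical libraries, with an interval of -0.08 to 0.29, and the wounded interval was -0.14 to 0.23. Of the exchange factor subunits, Eef1b2 had 0.04 (adjusted p = 0.864) and -0.02 (adjusted p = 0.923), Eef1g had 0.01 (adjusted p = 0.958) and -0.07 (adjusted p = 0.674), and Eef1d had -0.15 (adjusted p = 0.555) and -0.34 (adjusted p = 0.0872).

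Eef1e1 was the exception in this class. Its product, also called AIMP3, is a scaffold of the multi-tRNA synthetase complex and carries the name through an eEF1-like domain (ENSMUSG00000001707, chromosome 13, 38644207 to 38659058, - strand). It measured 30.9, 36.3 and 25.98 CPM in unwounded total and 17.5, 21.8 and 19.4 CPM in unwounded cortical libraries, with the cortical values lower (log2 fold change -0.67, SE 0.16, adjusted p = 0.01). In wounded cells the fractions gave 9.67, 10.1 and 10.2 CPM in total and 11.6, 12.96 and 12.6 CPM in cortical libraries, and the cortical values were above the total ones by 0.30, which did not pass (adjusted p = 0.241). Among the 6 modifiers, Eef1akmt1, a lysine methyltransferase of eEF1A, was lower in wounded cortical RNA at -0.64 (adjusted p = 0.018), and this was lost with the length trend removed (-0.35, adjusted p = 0.169). Eef2k, the kinase that inactivates eEF2, had -0.18 (adjusted p = 0.385) and -0.22 (adjusted p = 0.217).

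**Figure D2:**
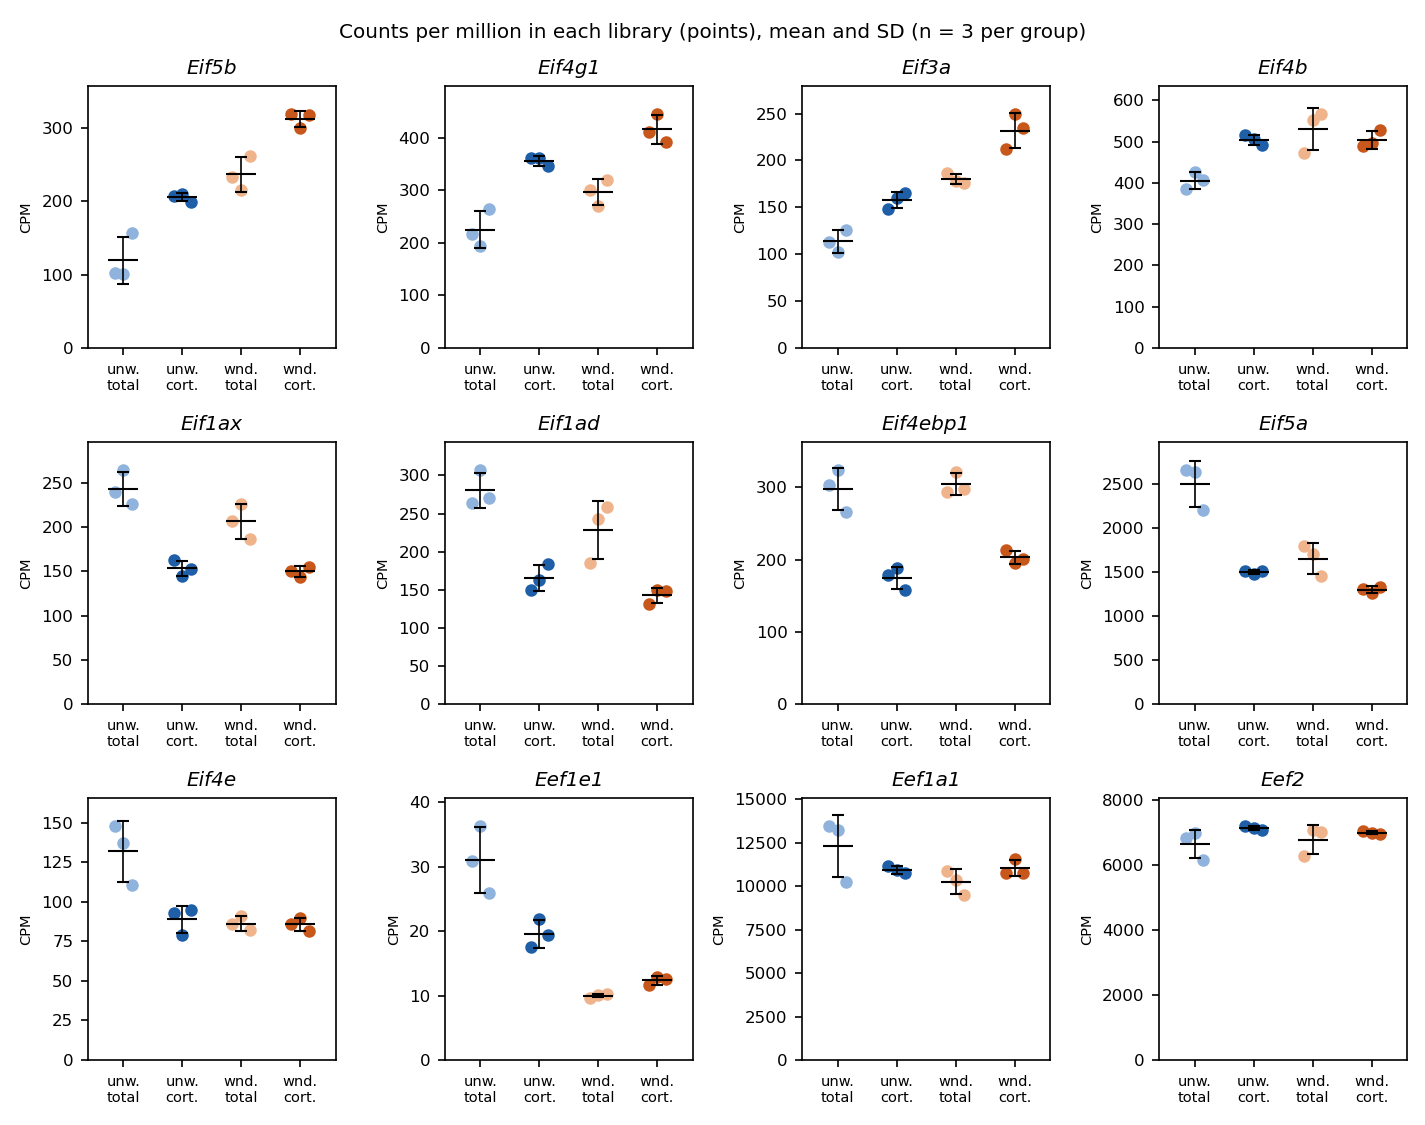
CPM (scaled by library size and TMM factor, linear y axes from 0) of 12 members in each of the 12 libraries (points), with group means and SD (n = 3). Eif5b, Eif4g1 and Eif3a sit higher in cortical than in total libraries, Eif4ebp1, Eif1ax, Eif1ad and Eif5a sit lower, and Eef1e1 is lowest in the wounded total libraries.

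The members that moved in opposite directions also differed in coding length. The 4 genes higher in unwounded cortical RNA had a median longest coding sequence of 3840 bases, the 15 lower ones 654 bases and the 41 others 1224 bases. In wounded cells the medians were 4032 bases for the 3 higher, 582 bases for the 12 lower and 1218 bases for the other 45. Across the 60 members the Spearman correlation of the log2 fold change with coding length was 0.624 in unwounded and 0.461 in wounded cells. The same correlation over 11475 protein-coding genes was 0.477 and 0.476, so a relation with length ran through the whole table. Genes share libraries and are not independent replicates, so these are descriptions without a test. The trend removed in the alternatives was on the deposited gene length, which differs from coding length, so it does not correct for coding length. With that length trend removed, the calls became 5 higher and 13 lower in unwounded cells (10.1% of all genes). They became 0 higher and 15 lower in wounded cells (10.5%). Eif5b, Eif4g1 and Eif3a still passed in unwounded cells, at 0.61, 0.55 and 0.43.

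**Figure D3:**
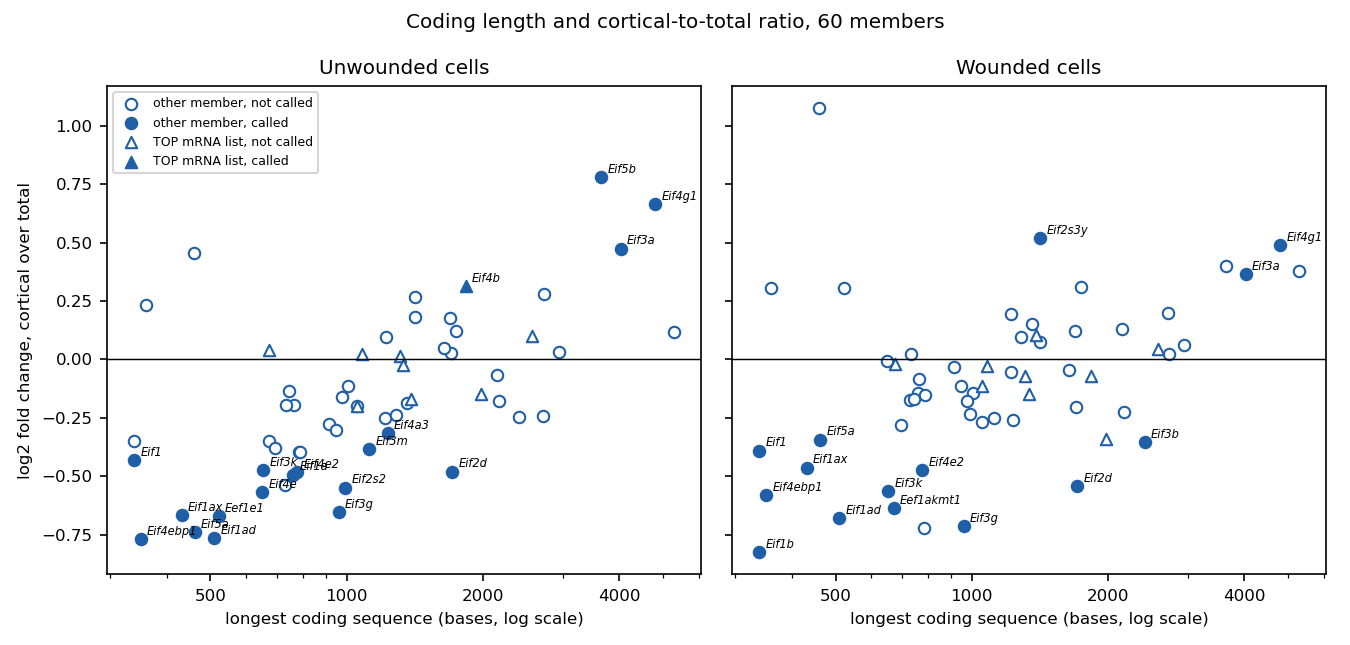
Log2 fold change of cortical over total fraction (y axis) against longest coding sequence in bases (x axis, log scale) for 60 members in unwounded (left) and wounded (right) cells. Filled symbols were called and triangles mark the TOP list: Eif5b, Eif4g1 and Eif3a sit at the long end above 0, and Eif4ebp1, Eif5a, Eif1ax and Eif1ad at the short end below it in unwounded cells.

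Among the 9 TOP messages the cortical-to-total log2 fold changes ran from -0.20 to 0.31 in unwounded and from -0.34 to 0.11 in wounded cells. In unwounded cells 1 of 9 was called, Eif4b, whose call did not hold when any one compared library was left out, with a median log2 fold change of 0.01, against 18 of the 51 other tested members with a median of -0.24. In wounded cells the counts were 0 of 9 and 15 of 51, with medians of -0.07 and -0.14. By the same test 14.2% of all genes were called in unwounded and 15.7% in wounded cells. With 9 genes in the list no more than its counts can be read. After wounding, 1 of 9 passed in the total fraction, again Eif4b, beside 15.6% of all genes. In the cortical fraction 0 of 9 passed, beside 2.48% of all genes. There 0 of the 9 had an unadjusted p under 0.05 and the log2 fold changes ran from -0.08 to 0.03.

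After wounding, the messages of eIF5B and of the eIF3 subunits a, c and d were among those higher in the total fraction, and those of Eef1e1, Eif1a, Eif4g2, Eif4e and Eif5a were among those lower. In the total fraction 18 of 60 passed, 7 higher and 11 lower, against 15.6% of all genes (8.39% higher and 7.20% lower) and 22.1% of those with a mean of at least 50 counts. The median was 0.00 over members and -0.03 over all genes. Higher were Eif5b, Eif3a, Eif3c, Eif3d, Eif1b, Eif4g1 and Eif4b, and lower were Eef1e1, Eif1a, Eif4g2, Eif4e, Eif2s3y, Eif5a, Eif2b1, Eif5, Eif2s2, Eif3m and Eif4a1. In the cortical fraction 4 of 60 passed, 2 higher and 2 lower, against 2.48% of all genes (1.60% and 0.884%). Those 4, Eif5b, Eif3a, Eif1a and Eef1e1, were also called in the total fraction in the same direction. Over all genes 76.6% of the 337 cortical calls were shared in this way, so with 4 genes no difference from the whole can be read. Without wounded total replicate 1 the counts were 29 and 7, beside 24.9% and 9.07% of all genes, and without unwounded total replicate 1 the count in the total fraction was 11, beside 7.99%. The cortical count was 0 without unwounded cortical replicate 1 or wounded cortical replicate 2, 1 when any one of the other 4 cortical libraries was left out, and 0 with library size alone. With the length trend removed, the calls in the total fraction became 14 higher and 9 lower (18.9% of all genes). Calls in the total fraction that ended were those of Eif4g1 and Eif1b with library size alone and of Eif4a1 and Eif3m with the length trend removed.

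**Figure D4:**
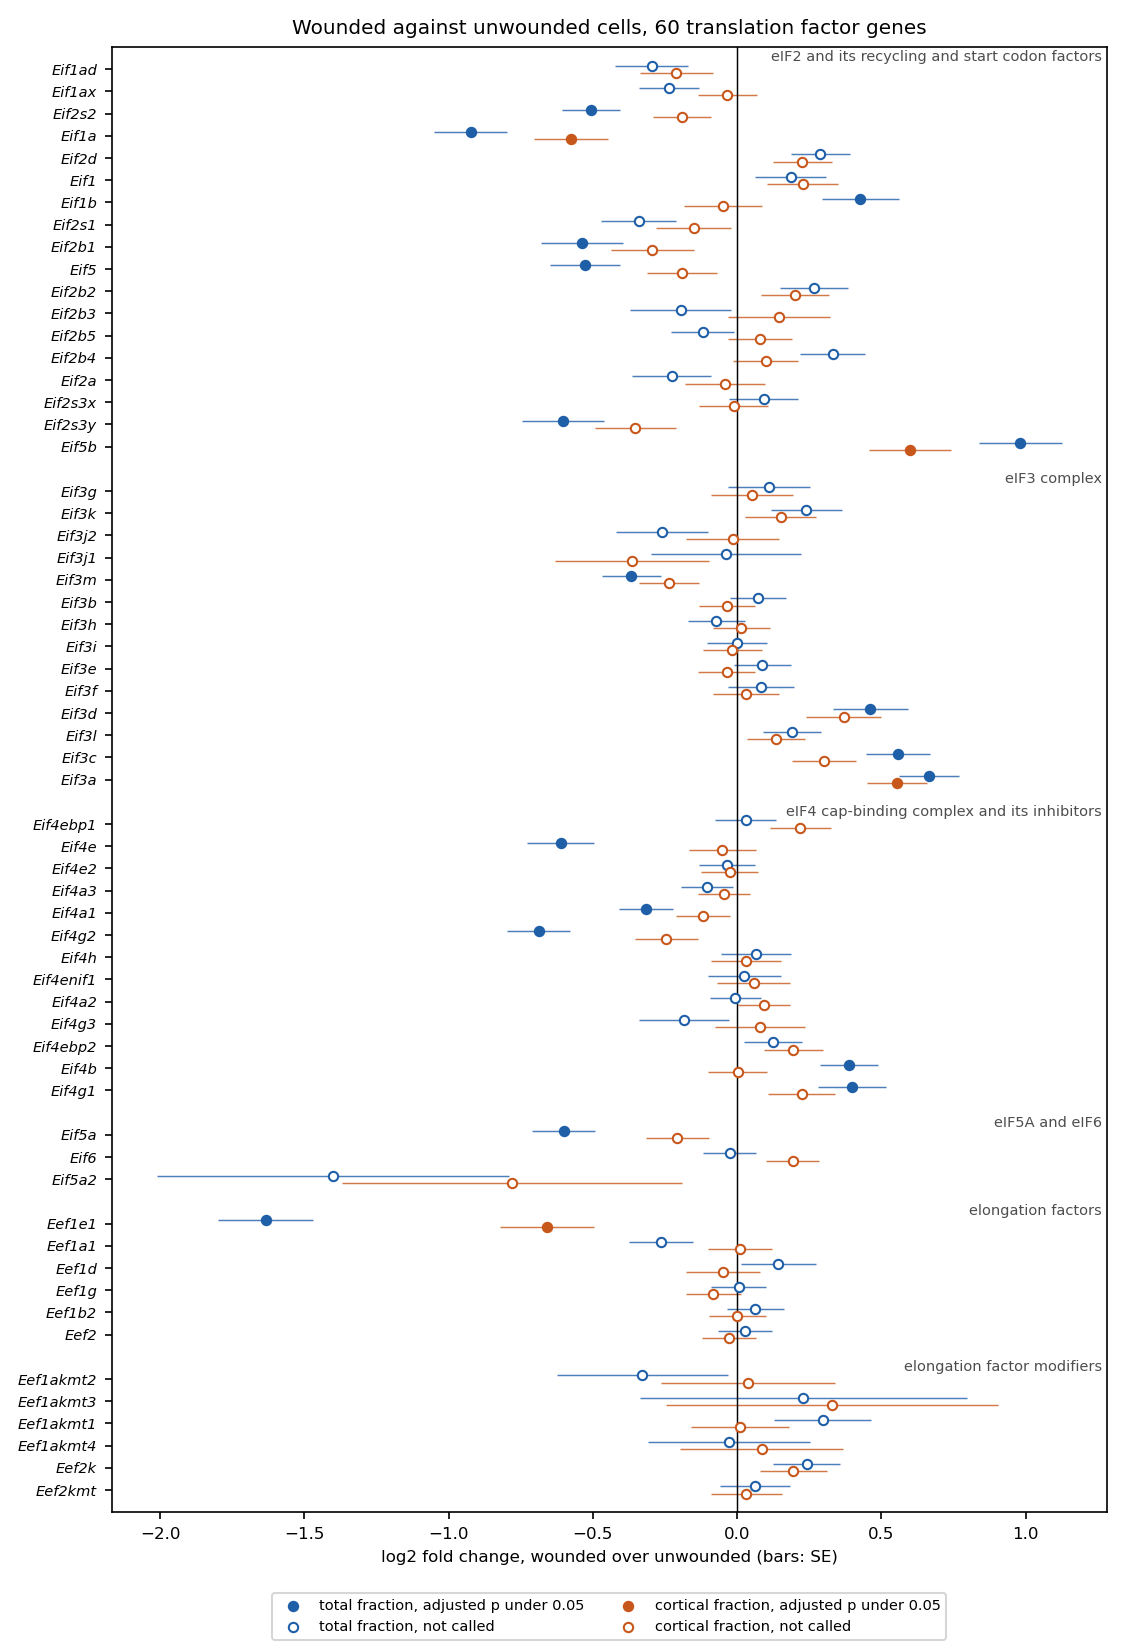
Log2 fold change of wounded over unwounded cells (x axis, bars: SE) for the 60 tested members, grouped by role, in the total and the cortical fraction. Filled points passed an adjusted p of 0.05: 18 in the total and 4 in the cortical fraction, with Eif5b and Eif3a to the right of 0 and Eif1a and Eef1e1 to the left in both.

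The lowest log2 fold change among the 60 members in the total fraction was that of Eef1e1. Its 3 wounded total libraries all lay far below the unwounded ones (log2 fold change -1.63, SE 0.17, adjusted p = 1.11e-05). Means were 31.1 ± 5.16 CPM in unwounded and 10.01 ± 0.296 CPM in wounded total libraries (SD, n = 3). In the cortical fraction it fell from 19.6 ± 2.18 to 12.4 ± 0.718 CPM (difference of -0.66 on the log2 scale, SE 0.16, adjusted p = 0.0413), and this call held in 15 of 24 alternatives. Eif5b rose in both fractions, from 119.6 ± 31.9 to 236 ± 23.3 CPM in total RNA (difference of 0.98 on the log2 scale, SE 0.14, adjusted p = 0.000302) and from 205 ± 5.88 to 311 ± 10.6 CPM in cortical RNA (difference of 0.60 on the log2 scale, SE 0.14, adjusted p = 0.0331). The cortical call for Eif5b held in 14 of 24 alternatives and was lost when any 1 cortical library was left out.

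Of the start codon factors 2 rose and 5 fell in the total fraction, which is 38.9% of them beside 15.6% of all genes. Eif1a measured 54.7, 52.1 and 44.01 CPM in unwounded and 29.9, 24.03 and 25.6 CPM in wounded total libraries. The groups did not overlap (log2 fold change -0.92, SE 0.13, adjusted p = 0.000212), and it also fell in the cortical fraction (log2 fold change -0.58, SE 0.13, adjusted p = 0.0237, a call that held in 17 of 24 alternatives). Its X-linked paralog Eif1ax was not called in either, at -0.24 (adjusted p = 0.138) in total and -0.03 (adjusted p = 0.917) in cortical RNA. Eif1ax made up 72.6% ± 1.80 of the FPKM of the pair in unwounded total libraries and 80.9% ± 2.45 in wounded total ones (SD, n = 3). Reads of such near copies can be hard to assign. Also lower in the wounded total fraction were Eif5, the GTPase activator of eIF2, at -0.53 (adjusted p = 0.0078), Eif2s2 at -0.51 (adjusted p = 0.00262) and Eif2b1, the alpha subunit of eIF2B, at -0.54 (adjusted p = 0.0172). Eif2s3y was lower at -0.60 (adjusted p = 0.00832), with wounded values spread from 92.3 to 149.6 CPM. Eif1b was higher at 0.43 (adjusted p = 0.0378), a call that held in 12 of 24 alternatives.

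Of the eIF3 genes 3 rose and 1 fell in the total fraction, which is 28.6% of them beside 15.6% of all genes. Eif3a went from 114 ± 12.02 to 180.2 ± 5.51 CPM in the total fraction (difference of 0.67 on the log2 scale, SE 0.10, adjusted p = 0.000489) and from 158 ± 8.71 to 232 ± 18.8 CPM in the cortical fraction (difference of 0.55 on the log2 scale, SE 0.10, adjusted p = 0.00937). Eif3a was the one member that passed in all 4 pairwise comparisons, and its wound call in cortical RNA held in 21 of 24 alternatives. Eif3c, another core subunit, measured 191, 188 and 244 CPM in unwounded and 290.5, 299 and 325 CPM in wounded total libraries, without overlap (log2 fold change 0.56, SE 0.11, adjusted p = 0.00292). Eif3d, a subunit that can itself bind some caps, was higher at 0.46 (adjusted p = 0.0238) and Eif3m was lower at -0.37 (adjusted p = 0.024). The other 10 eIF3 genes did not pass in the total fraction.

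In the eIF4 group 2 rose and 3 fell in the total fraction, which is 38.5% of those tested beside 15.6% of all genes. Eif4g2 measured 214, 191 and 171 CPM in unwounded and 132, 117 and 109 CPM in wounded total libraries, all wounded values being lower (log2 fold change -0.69, SE 0.11, adjusted p = 0.000563). Eif4g1 was higher at 0.40 (adjusted p = 0.0286) and Eif4b at 0.39 (adjusted p = 0.0162). Eif4e fell from 132 ± 19.3 to 86.2 ± 4.55 CPM (difference of -0.61 on the log2 scale, SE 0.12, adjusted p = 0.00187), whereas its cortical difference was -0.05 (adjusted p = 0.879). Eif4a1 was lower at -0.32 (adjusted p = 0.03), a call that held in 12 of 24 alternatives and ended with the length trend removed (-0.19, adjusted p = 0.104), and Eif4a2 had -0.01 (adjusted p = 0.974). Eif4a2 made up 16.1% ± 0.322 of the FPKM of the pair before and 19.2% ± 0.164 after wounding in total RNA (SD, n = 3). In cortical RNA this share was 19.7% ± 0.943 and 22.1% ± 0.547. Rfc4 overlaps Eif4a2 on the other strand with 12.7% of its counts. The inhibitor Eif4ebp1 had 0.03 (adjusted p = 0.896) in total and 0.22 (adjusted p = 0.301) in cortical RNA.

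Eif5a fell from 2502 ± 257 to 1649.8 ± 175 CPM in the total fraction (difference of -0.60 on the log2 scale, SE 0.11, adjusted p = 0.00142) and had -0.21 (adjusted p = 0.349) in the cortical fraction. The elongation factors other than Eef1e1 gave no call. Intervals for the wound difference in total RNA were -0.48 to -0.05 for Eef1a1 and -0.16 to 0.21 for Eef2, and in cortical RNA -0.20 to 0.23 and -0.21 to 0.16. The Eef1a1 difference in total RNA was -0.26 (adjusted p = 0.119) and did not pass. Eef2k had 0.24 (adjusted p = 0.179) in total and 0.20 (adjusted p = 0.428) in cortical RNA.

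Whether wounding altered the cortical-to-total ratio was tested as an interaction, the wounded log2 ratio minus the unwounded one. None of the 60 members passed with edgeR, against 0.125% of all genes, and DESeq2 also gave 0. At an unadjusted p under 0.05 there were 7: Eef1e1, Eif1b, Eif2s2, Eif4b, Eif4e, Eif4g2 and Eif5a. The share of all genes under that cut was not counted, so these 7 cannot be set against the whole. The ratio of Eef1e1 went from -0.67 to 0.30, a shift of 0.97 (SE 0.23, adjusted p = 0.202). The ratio of Eif4e went from -0.57 to -0.01, a shift of 0.56 (SE 0.16, adjusted p = 0.3). Without wounded total replicate 1, 4 members passed: Eef1e1 at 0.95 (adjusted p = 0.0303), Eif4b at -0.46 (adjusted p = 0.0296), Eif4g2 at 0.52 (adjusted p = 0.0401) and Eif5a at 0.46 (adjusted p = 0.045). In that fit 2.93% of all genes passed. With voom library quality weights 6 passed, these 4 with Eif4e and Eif2s3y, beside 6.30% of all genes.

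Other genes that act on the same pathway were taken as a list of 42, of which 41 were tested. In the cortical-to-total comparison 7 were higher and 4 lower in unwounded cells, and 8 were higher and 3 lower in wounded cells. That is 26.8% of the 41 in each treatment, beside 14.2% and 15.7% of all genes. Ppp1r15b, the constitutive subunit that directs dephosphorylation of eIF2, measured 52.5, 54.6 and 49.6 CPM in unwounded total and 89.2, 90.8 and 84.3 CPM in unwounded cortical libraries. It was higher in the cortical fraction in both treatments, at 0.75 (adjusted p = 0.00195) and 0.61 (adjusted p = 0.00792). Gigyf1, a partner of Eif4e2 in repression, and Rptor, the Raptor subunit of mTOR complex 1, were higher in unwounded cells, at 0.82 (adjusted p = 0.0132) and 0.65 (adjusted p = 0.00737). In wounded cells Rptor was called too, at 0.54 (adjusted p = 0.0194), and Gigyf1 had 0.58 (adjusted p = 0.066). Cyfip1, which can bind eIF4E, was higher in both treatments, at 0.48 (adjusted p = 0.0291) and 0.86 (adjusted p = 0.00104). Paip2, an inhibitor of poly(A)-binding protein, was lower in both, at -0.54 (adjusted p = 0.003) and -0.70 (adjusted p = 0.000673). The partners Denr and Mcts1, which act in reinitiation as Eif2d does, were lower in both treatments: Denr at -0.56 (adjusted p = 0.0013) and -0.58 (adjusted p = 0.00114), and Mcts1 at -0.64 (adjusted p = 0.0018) and -0.65 (adjusted p = 0.0015).

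After wounding 3 of the 41 rose and 4 fell in the total fraction, and 1 rose and 1 fell in the cortical fraction. That is 17.1% and 4.88% of the 41, beside 15.6% and 2.48% of all genes. Ppp1r15a, the stress-induced counterpart GADD34, measured 26.5, 23.7 and 25.2 CPM in unwounded and 46.3, 50.8 and 49.7 CPM in wounded total libraries. The wounded values were higher (log2 fold change 0.96, SE 0.12, adjusted p = 8.61e-05), and the cortical difference was 0.47 (adjusted p = 0.0477). Ppp1r15b moved the other way, at -0.52 (adjusted p = 0.018) in total and -0.67 (adjusted p = 0.0161) in cortical RNA. Also lower in the total fraction were Abce1, which recycles ribosomes, at -0.78 (adjusted p = 0.000217), the helicase gene Ddx3x at -0.62 (adjusted p = 0.000593) and Paip2b at -0.54 (adjusted p = 0.0131). The 4 eIF2 kinases gave no call in any comparison. In the interaction 0 of 41 passed, beside 0.125% of all genes. At an unadjusted p under 0.05 there were 4, and the share of all genes under that cut was not counted.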

How the data were processed

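Messenger RNA of 12 libraries was measured, 3 in each of 4 groups taken from the sample titles. The authors deposited counts per gene in one table and, in another, FPKM, which divides counts by gene length and depth, per the file headers. Gene length is given there in bases as another column. CASAVA, HISAT2 and mm10 are named in the submitters' processing notes. The counting tool and annotation are not given in the sources used here. Libraries were non-directional, per the labels' protocols. In GENCODE M21 (GRCm38) 64 of 64 members were found, 61 with the same start, end and strand.

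The counts were fitted in R 4.3.3 with edgeR 4.0.16: filterByExpr on the groups, TMM factors (0.831 to 1.10), 1 quasi-likelihood model over the 12 libraries, two-sided tests, and Benjamini-Hochberg adjustment over 13571 genes in each of 5 contrasts, at 0.05. CPM are scaled by TMM. Intervals are the estimate ± 1.96 SE and approximate. limma 3.58.1 and DESeq2 1.42.0 served the alternatives, and python 3.11.15 with matplotlib 3.10.9 the figures and sequence windows. The main fit and some of the alternatives were first tested on simulated data, for the cortical-to-total contrast in unwounded cells only.

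Members and lists were chosen with earlier results of these data known. Named were every member with an adjusted p under 0.05, 26 core members (those with 0 or too few counts once), and up to 5 called pathway genes per contrast. Markers, overlapping genes and the TOP list are named for what they are, not by a test. Of the members, 12 are overlapped on the other strand by a gene with at least 100 counts. Near copies (Eif2s3x and Eif2s3y, Eif3j1 and Eif3j2, Eif1a and Eif1ax) and 9 processed pseudogenes with 25010 counts in all make some counts uncertain.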

Additional observations from a re-analysis of the deposited data

How the results depend on the processing

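The 24 alternatives covered other scalings and filters, DESeq2, limma on log2 of FPKM plus 1 or plus 0.1, and only the groups compared. They also covered the replicate block, removal of a trend on deposited gene length, voom quality weights, and each library left out. Over these, 0 of the called differences of members changed direction. The alternatives were read for members only, so how far the calls of the other pathway genes hold was not tested. Calls held in every alternative for 11 of the 19 members in unwounded cortical against total RNA (3 higher, 8 lower), 6 of the 15 in wounded cells (Eif1ad, Eif1b, Eif2d, Eif3g, Eif3k and Eif4ebp1), 9 of the 18 for wounding in total RNA, and 0 of the 4 in cortical RNA. In the order unwounded, wounded, wound in total RNA, wound in cortical RNA and interaction, voom quality weights gave 31, 26, 34, 7 and 6 calls, beside 27.3%, 32.7%, 38.4%, 9.70% and 6.30% of all genes. When the fit held only the groups compared, calls were 9 in wounded cells, 10 for wounding in total RNA and 16 in cortical RNA, beside 7.66%, 9.25% and 11.3% of all genes. Library size alone gave 0 for wounding in cortical RNA. The cause of these shifts was not tested.

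Leaving out 1 library gave 12 to 25 calls in unwounded cells, 8 to 19 in wounded cells, 11 to 29 for wounding in total RNA, 0 to 7 in cortical RNA and 0 to 4 in the interaction. The highest count came without wounded total replicate 1 in each case. The interaction had no fit with only the groups compared, since it uses all 4. Same-numbered libraries did not pair: the mean correlation of their deviations was 0.0132 over 18 pairs, 2 of which were over 0.1, and 0 libraries correlated best with their own number. With the replicate number as a block the calls were 18, 13, 18, 3 and 0, and with the block and the length trend removed 17, 16, 23, 4 and 0. Members with few counts, such as Eif5a2 and Eef1akmt3, had the widest errors.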
